A study of Homo sapiens with 4 samples.

Results

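The genes described are 31 genes of protein folding in the endoplasmic reticulum and of its stress response, chosen by name from a list of symbols. The list was chosen with earlier results of these data known, which limits how its shares compare with those of all genes. All 31 were found among the 18640 genes measured, on 406 exon-level probesets (small groups of probes within an exon). By role they comprise 4 genes of stress sensing (ATF6, ERN1, EIF2AK3 and XBP1), 12 of chaperones and folding factors, 6 of disulfide isomerases, 5 of degradation and 4 of translocation. RNA came from embryoid bodies, aggregates of differentiating cells, grown from BG01V, an established human embryonic stem cell line. One group of 2 arrays received the vehicle DMSO, and the other group of 2 arrays received 10 µM TBBD, which the series title calls an inhibitor of H3R17 methylation, for 48 h. Treatment generally fell between day 2 and day 4 of embryoid body formation, and both groups shared the cell line and the serum-containing differentiation medium. Each group held a replicate 1 and a replicate 2. The labels do not say whether these were separate cultures or what the numbers stand for, so a p-value here reflects the spread among these 4 arrays, which may be technical.

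Secreted and membrane proteins enter the endoplasmic reticulum through the Sec61 channel and fold there with the help of chaperones and disulfide isomerases. Proteins that fail to fold are sent back to the cytosol and degraded. When unfolded protein accumulates, the membrane sensors IRE1 (encoded by ERN1), PERK (encoded by EIF2AK3) and ATF6 start the unfolded protein response, which raises chaperone and degradation genes through the transcription factors XBP1, cleaved ATF6 and ATF4. IRE1 activates XBP1 by splicing its mRNA, a step that a gene-level mean over probesets does not measure. Differentiating tissues that secrete much protein, such as visceral endoderm and connective tissue, are known to use this machinery heavily.

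Many of these genes carry the response's own control elements in their promoters, and the sites below are shown because they link genes whose signals later differed between replicates with others that did not. RefSeq promoter windows (GRCh38.p14, from 250 bases before a gene's start to 50 after) were matched by symbol for 30 of the 31 genes and searched on both strands. The endoplasmic reticulum stress response element, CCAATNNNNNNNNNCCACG, occurred in windows of 8 of these 30 genes. It occurred in 0.131% of the 14543 measured genes with a window, and in 0.077% of all 35116 windows. The genes described were chosen for their roles in this response, so their higher share is no independent result. The measured genes include them, and of the 19 measured genes with the element 8 were theirs. Those 8 were XBP1, HSPA5, HSP90B1, CALR, CANX, PDIA6, CRELD2 and SERP1. The second form of the element, ATTGGNCCACG, occurred in HYOU1, SDF2L1 and HERPUD1, against 0.11% of these measured genes and 0.054% of all windows. The unfolded protein response element, TGACGTGG, occurred in HYOU1, where its last bases overlap the second form, against 1.107% of these measured genes and 0.729% of all windows. Capitals mark the element, each line reads 5′ to 3′ on the gene's own strand, and an element on the opposite strand shows as its reverse complement.
HSPA5 (minus strand, element at chr9:125241391-125241409): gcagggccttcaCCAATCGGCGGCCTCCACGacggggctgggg
HSP90B1 (plus strand, element at chr12:103930216-103930234): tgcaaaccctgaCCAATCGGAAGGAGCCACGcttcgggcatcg
XBP1 (minus strand, element at chr22:28800603-28800621): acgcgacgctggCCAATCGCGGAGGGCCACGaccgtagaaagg
CALR (plus strand, element reversed, at chr19:12938384-12938402): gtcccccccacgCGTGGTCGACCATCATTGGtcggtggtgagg
CRELD2 (plus strand, element reversed, at chr22:49918554-49918572): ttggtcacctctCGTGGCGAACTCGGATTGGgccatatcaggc
HYOU1 (minus strand, second form reversed, at chr11:119057274-119057284): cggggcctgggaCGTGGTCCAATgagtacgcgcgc
HERPUD1 (plus strand, second form, at chr16:56932025-56932035): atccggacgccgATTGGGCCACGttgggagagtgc
In HSPA5 the element spans 66 to 48 bases before the start, in XBP1 52 to 34 and in CRELD2 80 to 62. HSP90B1 carried a second copy on the opposite strand, 89 to 71 bases before its start, besides the copy shown at 194 to 176. HYOU1 carried a further copy of the second form 185 to 175 bases before its start. These are letter matches in 1 window per start site, and neither a match nor its absence shows whether a factor binds.

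The deposited values are log2 signals, and median signals over probesets lay between 6.39 and 6.42 on the 4 arrays. Signal depends on the probes, so levels are compared between arrays and not between genes. Every one of the 31 genes had a mean signal above 5.66, the 95th percentile of 348 olfactory receptor genes, which these cells are not expected to express. The lowest mean was 5.83, for SDF2L1. On single arrays SDF2L1 fell below that percentile, at 5.56 on TBBD replicate 1, and CRELD1 was level with it, at 5.66 on DMSO replicate 2. Of 11 measured markers of undifferentiated stem cells, POU5F1 stood at 7.75 and 7.20 with DMSO and at 7.73 and 6.60 with TBBD, in the order of replicates 1 and 2. In bulk RNA, fewer cells of a type and less RNA per cell cannot be told apart.

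These genes separated by replicate number more than by treatment, as did all genes on these arrays. Chaperone genes led by HSPA5 and HYOU1 were lower on both replicate 2 arrays than on both replicate 1 arrays, while no gene of the 31 passed the test between TBBD and DMSO. For 22 of the 31 genes the difference between replicate numbers exceeded in size the difference between treatments. The median size over the 31 was 0.150 between numbers and 0.077 between treatments. All genes gave 0.127 and 0.075, so this order was not particular to the 31.

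**Figure D1:**
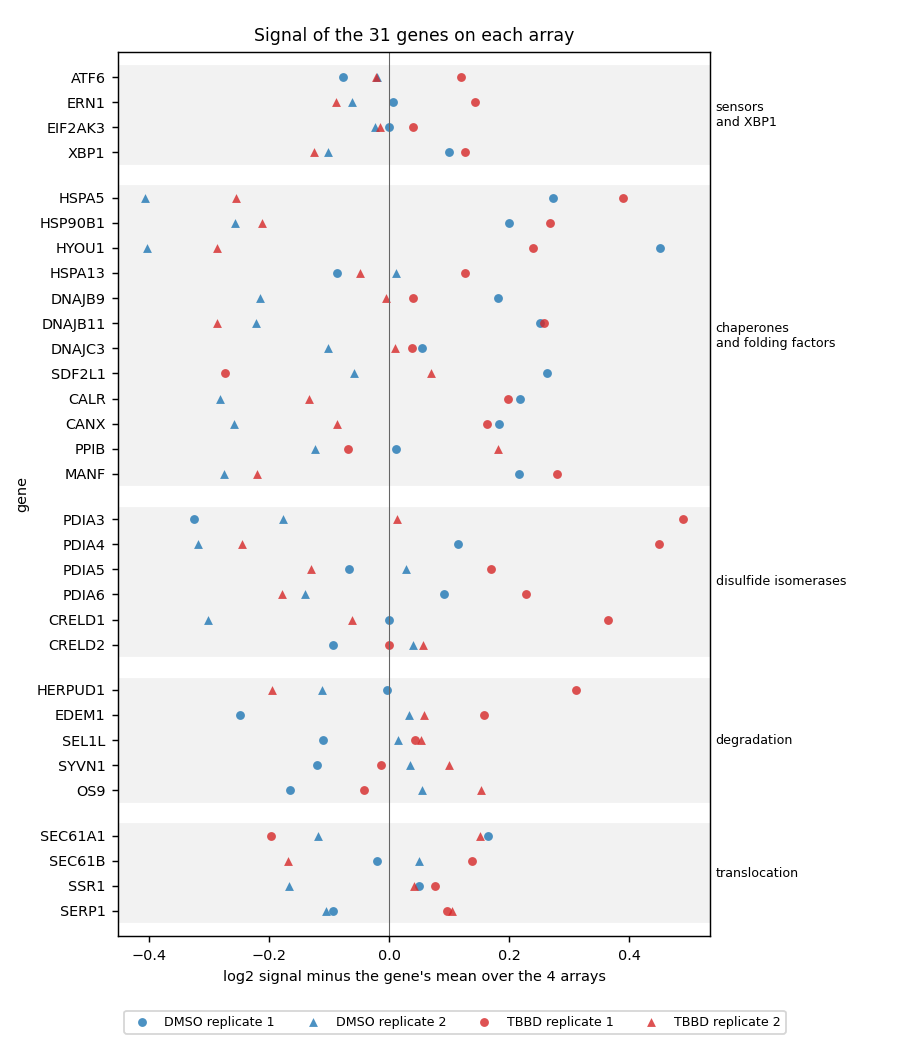
Log2 signal of each of the 31 genes on the 4 arrays (x axis), minus that gene's mean over the arrays, with genes by role on the y axis; colour gives the treatment and shape the replicate. For HSPA5, HSP90B1, HYOU1, DNAJB11, CALR, CANX and MANF both replicate 2 arrays lie left of both replicate 1 arrays, whatever the treatment.

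Against DMSO, TBBD came with small differences that lay mostly above 0. The median log2 difference over the 31 genes was 0.065, with 26 higher and 5 lower with TBBD, and the values ran from -0.20 for SDF2L1 to 0.50 for PDIA3. Over all genes the median was -0.0035 and 48.8% were higher. In limma's moderated test 0 of the 31 genes had an adjusted p under 0.05, as did 0 of all genes (0%), where each adjusted p was 1. Before adjustment, 1 of the 31 had a p under 0.05, PDIA3, against 0.746% of all genes. Of the 31 genes, 4 (PDIA3, EDEM1, SEL1L and SERP1) had both TBBD arrays above both DMSO arrays and 0 had both below, where all genes gave 10.5% and 10.4%. The 95% confidence interval held 0 for 30 of the 31 genes, with half-widths from 0.28 to 0.86, in which the spread between replicate numbers is included.

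Within replicate numbers, 23 of the 31 genes were higher on TBBD 1 than on DMSO 1, at a median of 0.11, and 22 were higher on TBBD 2 than on DMSO 2, at a median of 0.066. Of all 18640 genes, 8423 and 9919 were higher in these comparisons. Of the 31, 14 were higher in both, against 21.5% of all genes, and 0 were lower in both, against 23.0%. The other 17 changed sign between the numbers, a share near that of all genes (10307 of 18640). The median of the 31 rested on which arrays entered. Without DMSO replicate 1 it was 0.17, and leaving out TBBD replicate 2 gave 0.17 too. It was 0.0089 when DMSO replicate 2 was dropped and -0.010 when TBBD replicate 1 was dropped. The count of higher genes moved likewise, from 26 to 17 without DMSO replicate 2 and to 14 without TBBD replicate 1. The first pair of fits leaves replicate 1 in excess on the TBBD side and the other pair leaves it in excess on the DMSO side, and 21 of the 31 genes turned sign in at least 1 of the 4. Some lists of markers of other cells also leaned 1 way by treatment in their mean differences. All 11 stem cell markers were lower with TBBD, at a median of -0.21, and all 15 visceral endoderm and hepatic markers (median 0.14) and 12 of 14 mesenchyme and matrix markers (median 0.14) were higher, with 0 of these called by limma and 1, a mesenchyme marker, at an unadjusted p under 0.05. Most of these markers overlapped between the groups. Both TBBD arrays lay below both DMSO arrays for 2 of the 11, and above them for 1 of the 15 and 1 of the 14. All genes gave 10.4% below and 10.5% above. Neural markers (4 higher, 6 lower) and definitive endoderm markers (3 higher, 4 lower) lay both ways. The part of these cell types in the small differences was not tested.

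**Figure D2:**
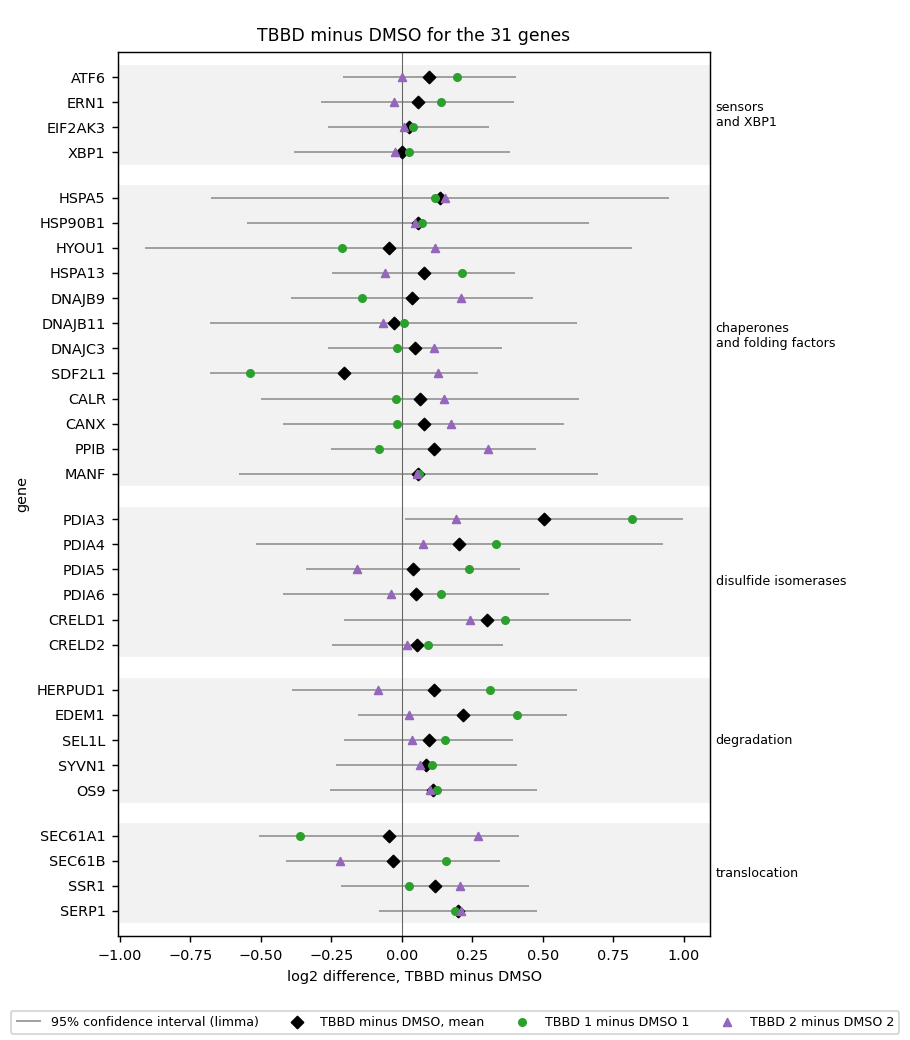
Log2 difference between TBBD and DMSO (x axis) for the 31 genes by role (y axis): the mean difference with its 95% confidence interval from limma, and the difference within each replicate number. Most means lie just above 0, and only the interval of PDIA3, from 0.010 to 1.00, leaves out 0.

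The 4 genes of stress sensing had a median difference of 0.040, and none passed the test. ATF6, whose product is cut in the Golgi to release a transcription factor, stood at 8.48 and 8.53 with DMSO and at 8.67 and 8.53 with TBBD, so TBBD 1 was high and the other 3 arrays were alike. Its difference was 0.097 ± 0.12 (SE). ERN1 (IRE1), the sensor that splices XBP1 mRNA, stood at 6.07 and 6.0 with DMSO and at 6.21 and 5.97 with TBBD, a difference of 0.056 ± 0.13. EIF2AK3 (PERK), the kinase that dampens translation, differed by 0.024 ± 0.11, with a confidence interval from -0.26 to 0.31. XBP1, the transcription factor that IRE1 activates, stood at 8.53 and 8.33 with DMSO and at 8.56 and 8.31 with TBBD. Its 4 values fell by replicate number and not by treatment, and its difference was 0.00096 ± 0.15. With each gene summarised by its median probeset, ERN1 stood at -0.17, EIF2AK3 at -0.13 and XBP1 at -0.041, so the direction of these 3 depended on the summary.

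Of the 12 chaperones and folding factors, 9 were higher with TBBD and 3 lower, at a median of 0.058. HSPA5 (BiP), the main Hsp70 chaperone of the compartment and a standard readout of the response, stood at 10.16 and 9.48 with DMSO and at 10.28 and 9.63 with TBBD. TBBD was above DMSO by 0.12 in replicate 1 and 0.15 in replicate 2, but each treatment spanned both a high and a low array. Its difference of 0.13 ± 0.32 (SE) had a confidence interval from -0.68 to 0.95, which corresponds to between 0.625 and 1.93 times the DMSO level. HSP90B1 (GRP94), the Hsp90 of the compartment, differed by 0.070 in replicate 1 and 0.046 in replicate 2. MANF, a secreted factor induced by this stress, differed by 0.062 and 0.054. These 3 were the chaperone genes that lay higher with TBBD in both replicates.

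The other 9 genes of this role changed sign between the replicates. HYOU1 (GRP170), a nucleotide exchange factor for BiP, stood at 8.70 and 7.85 with DMSO and at 8.49 and 7.97 with TBBD, that is -0.21 in replicate 1 and 0.12 in replicate 2. The lectin chaperones CALR (calreticulin) and CANX (calnexin), which hold newly glycosylated proteins, differed by -0.020 and -0.019 in replicate 1 and by 0.15 and 0.17 in replicate 2. The BiP co-chaperone gene DNAJB9 differed by -0.14 and 0.21, DNAJB11 by 0.0071 and -0.065, and DNAJC3 by -0.016 and 0.11. PPIB, a prolyl isomerase that helps collagen fold, differed by -0.080 and 0.31, and HSPA13, an Hsp70-like protein of the microsomes, by 0.21 and -0.059. SDF2L1, which keeps BiP clients soluble, had the widest gap of the 12 between its same-number differences, -0.54 and 0.13. It stood at 6.09 and 5.77 with DMSO and at 5.56 and 5.90 with TBBD, so that TBBD 1 was the lowest array. That value lay below the olfactory receptor percentile given above. The difference of SDF2L1 turned from -0.20 to 0.16 with the median over its 4 probesets.

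All 6 disulfide isomerase genes had a mean above 0 with TBBD, at a median of 0.13. PDIA3 (ERp57), the isomerase that works with calnexin and calreticulin, stood at 6.37 and 6.52 with DMSO and at 7.19 and 6.71 with TBBD. Both TBBD arrays lay above both DMSO arrays, by 0.82 in replicate 1 and 0.19 in replicate 2, and the difference was 0.50 ± 0.19 (SE, limma unadjusted p = 0.0468, adjusted p = 1). This value rested on 1 probeset, since the platform annotation gives 14 other probesets of PDIA3 to several genes. CRELD1, a membrane protein classed with the isomerases, stood at 5.96 and 5.66 with DMSO and at 6.32 and 5.90 with TBBD, higher with TBBD by 0.37 and 0.24 in the same-number comparison but overlapping as groups. Its difference was 0.30 ± 0.20. PDIA4 (ERp72) differed by 0.33 in replicate 1 and 0.074 in replicate 2, and the secreted CRELD2 by 0.094 and 0.016. PDIA5 and PDIA6 (P5) changed sign, at 0.24 and 0.14 in replicate 1 and -0.16 and -0.038 in replicate 2. With DMSO replicate 2 left out the difference of PDIA4 was -0.013, and without TBBD replicate 1 it was -0.14.

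All 5 degradation genes also had a mean above 0, at a median of 0.11. EDEM1, which marks misfolded glycoproteins by trimming their mannose, stood at 6.32 and 6.60 with DMSO and at 6.73 and 6.63 with TBBD. The TBBD arrays were both higher, but the margin over DMSO 2 was 0.025, and the difference was 0.22 ± 0.14 (SE). SEL1L, the partner of the ubiquitin ligase, stood at 7.58 and 7.70 with DMSO and at 7.73 and 7.74 with TBBD, a difference of 0.095 ± 0.12. SYVN1 (HRD1), the ubiquitin ligase itself, differed by 0.11 in replicate 1 and 0.066 in replicate 2. OS9, a lectin that delivers clients to it, differed by 0.12 and 0.099. HERPUD1, a membrane scaffold of the ligase complex whose promoter site is printed above, differed by 0.31 and -0.084. Apart from HERPUD1, the 4 others stayed above 0 in each of the 4 fits that left out 1 array, at 0.0017 or more.

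Among the 4 translocation genes, 2 were higher and 2 lower with TBBD. SERP1 (RAMP4), which protects nascent membrane proteins at the channel, stood at 7.40 and 7.39 with DMSO and at 7.59 and 7.60 with TBBD. Its arrays separated by treatment with little spread inside either group, at 0.20 ± 0.11 (SE, limma unadjusted p = 0.127, adjusted p = 1), and the difference stayed between 0.19 and 0.21 with any 1 array left out. SSR1, a subunit of the translocon-associated complex, differed by 0.026 in replicate 1 and 0.21 in replicate 2. SEC61A1, the pore of the channel, stood at 9.91 and 9.63 with DMSO and at 9.55 and 9.90 with TBBD, so its order turned between the replicates. SEC61B, a small subunit of the channel, turned the other way, at 0.16 and -0.22.

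The wider pathway, 125 measured genes listed for their roles, showed a median of 0.019 with TBBD, 70 higher and 55 lower. At an unadjusted p under 0.05 in limma there was 1 of 125, near the 0.746% of all genes, and 0 passed the adjusted threshold, as for all genes. That gene was RNF5, a membrane ubiquitin ligase of the degradation pathway measured on 2 probesets, at 5.97 and 6.17 with DMSO and 6.38 and 6.97 with TBBD, a difference of 0.60 ± 0.23 (SE). After RNF5 the largest differences were 0.27 ± 0.17 for PPIC and 0.27 ± 0.57 for ERP27 above 0, and -0.27 ± 0.25 for MAN1B1, -0.26 ± 0.24 for SRP14 and -0.20 ± 0.14 for FKBP11 below 0. ATF4, the transcription factor downstream of PERK, stood at 9.01 and 8.89 with DMSO and at 8.93 and 9.38 with TBBD. Its death-promoting target DDIT3 (CHOP), on 1 probeset, stood at 7.18 and 6.66 with DMSO and at 6.94 and 6.66 with TBBD. The differences were 0.21 ± 0.18 and -0.12 ± 0.21. The 12 genes of the PERK branch had a median of 0.12, with 8 higher, where 48.8% of all genes were higher. This was the highest median among the lists by role in the wider pathway, and the others ran from -0.00054 to 0.040.

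Between replicate numbers the folding genes separated. On replicate 2, 23 of the 31 had the lower mean and the median difference was -0.13, where 50.6% of all genes were lower and their median was -0.0024. Both replicate 2 arrays lay below both replicate 1 arrays for 17 of the 31, against 25.9% of all genes, and above them for 3 (CRELD2, SYVN1 and OS9), against 25.1%. The brightest 9320 genes, which held 27 of the 31, leaned lower themselves. Of these 9320, 5257 had the lower mean on replicate 2, at a median of -0.037. Both replicate 2 arrays lay below both replicate 1 arrays for 3156 of them and above for 2278. In limma with the number as the only term, 5 of the 31 had an adjusted p under 0.05 and all 5 were lower on replicate 2, against 2.02% of all genes called lower. At an unadjusted p under 0.05 there were 12 of the 31, all lower, against 10.6% of all genes lower and 21.0% in either direction. The 5 called genes were HSPA5, HYOU1, DNAJB11, MANF and HSP90B1, all chaperones or folding factors.

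HSPA5 differed by -0.66 ± 0.11 (SE, limma adjusted p = 0.0186), or 36.8% less signal on replicate 2, at -0.68 between the DMSO arrays and -0.65 between the TBBD arrays. HYOU1 differed by -0.69 ± 0.11 (adjusted p = 0.0198), at -0.85 and -0.53. For HSPA5 all 9 probesets were lower on replicate 2 in both treatments, and for HYOU1 30 of 32. DNAJB11 stood at 8.17 and 7.70 with DMSO and at 8.18 and 7.63 with TBBD, a difference of -0.51 ± 0.097 (adjusted p = 0.0311). MANF stood at 8.07 and 7.58 and at 8.13 and 7.63, a difference of -0.50 ± 0.098 (adjusted p = 0.0339). HSP90B1 stood at 11.97 and 11.52 and at 12.04 and 11.56, a difference of -0.47 ± 0.098 (adjusted p = 0.0407). In each of these genes the same-number arrays of the 2 treatments lay closer together than the 2 arrays of 1 treatment.

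The calls of these 5 genes depended on which arrays and which model were used, while their directions held with any 1 array left out. With 3 arrays limma called HYOU1 alone without TBBD replicate 1, HSPA5 alone without TBBD replicate 2, and PDIA4 alone without DMSO replicate 1, and it called 0 of the 31 without DMSO replicate 2 (8 at an unadjusted p under 0.05). Across those fits HSPA5 stayed between -0.74 and -0.59, HYOU1 between -0.80 and -0.59 and HSP90B1 between -0.50 and -0.43. With the treatment as a second term, limma called HSPA5 (adjusted p = 0.0297) and HYOU1 (adjusted p = 0.0395). Summarising each gene by its median probeset left HSPA5, HYOU1 and DNAJB11 called.

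**Figure D3:**
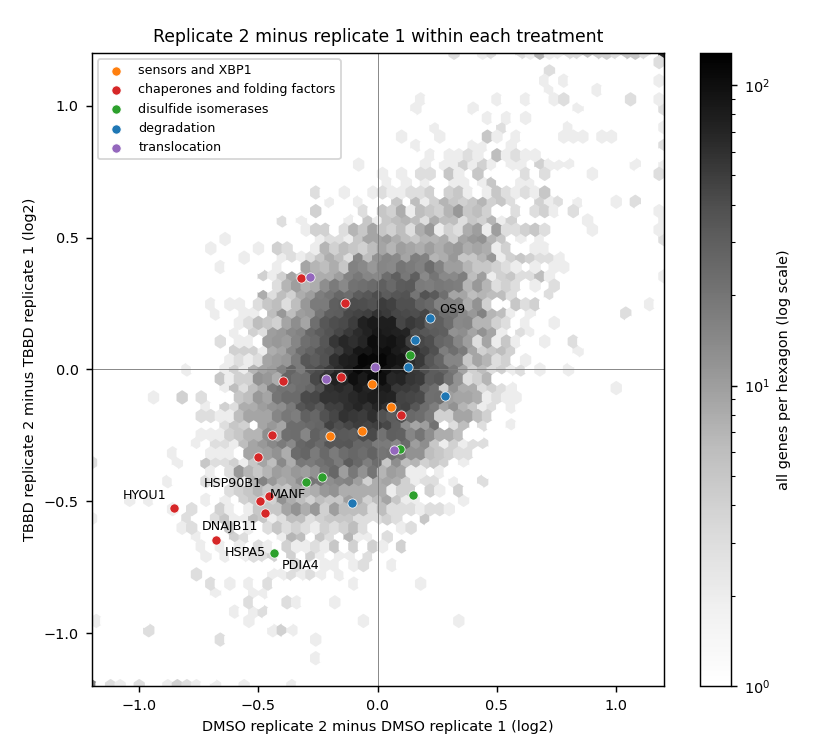
Replicate 2 minus replicate 1 on the log2 scale, between the DMSO arrays (x axis) and between the TBBD arrays (y axis); coloured points are the 31 genes by role and grey hexagons count all genes, with values beyond the axes drawn at the edge. Chaperone genes such as HSPA5 and HYOU1 lie toward the lower left, and OS9 lies to the upper right.

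The roles gave different medians in this comparison. Chaperones and folding factors had a median of -0.38, with 10 of 12 lower, and CALR at -0.42 ± 0.10 (limma adjusted p = 0.0677) and CANX at -0.35 ± 0.11 (adjusted p = 0.118) missed the threshold. All 15 probesets of CALR were lower on replicate 2 in both treatments. Disulfide isomerases had a median of -0.24, with 5 of 6 lower, led by PDIA4 at -0.56 ± 0.13 (adjusted p = 0.0544), which was lower on all of its 12 probesets in both treatments. The 4 sensing genes were all lower, at a median of -0.096, with XBP1 the largest at -0.23 ± 0.096 (adjusted p = 0.237). Translocation genes had a median of -0.060. Degradation genes lay the other way, at a median of 0.090 with 4 of 5 higher. OS9 stood at 8.20 and 8.42 with DMSO and at 8.33 and 8.52 with TBBD, so both replicate 2 arrays were above both replicate 1 arrays, but its difference of 0.21 ± 0.10 did not pass (adjusted p = 0.317). HERPUD1, at -0.31 ± 0.13 (adjusted p = 0.228), was the exception among the 5. Other genes of these roles, from the wider pathway, did not repeat the order. The 20 other chaperone and glycoprotein folding genes had a median of 0.091, with 11 higher. The 20 other genes of disulfide isomerases and oxidation had a median of -0.0034, with 10 higher. The 24 other degradation genes had a median of -0.042, with 13 lower, and 33 other translocation genes -0.041, with 22 lower. Whether the roles differ from each other was not tested.

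The promoter elements lay on both sides of this difference. Of the 8 genes with the stress response element 7 were lower on replicate 2, at a median of -0.33, and of the 22 other genes with a window 15 were lower, at a median of -0.097. Those 22 include HYOU1, SDF2L1 and HERPUD1, which hold the second form. Split by any of the 3 elements, 9 of 11 genes with 1 were lower, at a median of -0.32. Of the 19 with none, 13 were lower, at a median of -0.092. CRELD2, with the element printed above, stood at 5.89 and 6.02 with DMSO and at 5.98 and 6.04 with TBBD, higher on replicate 2. SERP1, also with the element, differed by -0.0017 and counts among the lower ones. DNAJB11, MANF and PDIA4, with 3 of the larger differences, had none of the 3 elements in their windows as spelled.

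The wider pathway did not lean one way between the numbers, with 67 of 125 genes lower and 58 higher on replicate 2 and a median of -0.026. Limma called 7 of the 125, 3 lower and 4 higher, a share near the 5.37% of all genes called in either direction. The lower ones were the asparagine synthetase gene ASNS at -0.73 ± 0.12 (adjusted p = 0.0177) and the glutathione-degrading CHAC1 at -0.68 ± 0.13 (adjusted p = 0.0287), both targets of ATF4, and the peroxiredoxin gene PRDX4 at -0.66 ± 0.13 (adjusted p = 0.0317). DDIT3 differed by -0.40 ± 0.11 (adjusted p = 0.100) and ATF4 itself by 0.16 ± 0.16. Among the higher ones FKBP10, a collagen chaperone, stood at 9.07 and 9.74 with DMSO and at 9.15 and 9.95 with TBBD, a difference of 0.74 ± 0.11 (adjusted p = 0.0151). The isomerase-like ERP27 differed by 1.24 ± 0.14 (adjusted p = 0.00504) and the peroxidase GPX7 by 0.75 ± 0.13 (adjusted p = 0.0216). The other higher gene was GPX8, a relative of GPX7, at 0.52 ± 0.11 (adjusted p = 0.0456), which was named after its value was seen. FKBP10, ERP27 and GPX7 thus lay opposite to HSPA5 and HYOU1 on the same arrays.

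Cell type markers differed by replicate number as well. Of 15 measured visceral endoderm and hepatic markers 14 were higher on replicate 2, at a median of 1.25, with 10 called by limma, and the summed linear signal of the list ran from 682 to 748 on the replicate 1 arrays and from 1753 to 2149 on the replicate 2 arrays. AFP stood at 5.50 and 7.98 with DMSO and at 5.85 and 8.22 with TBBD. All 14 mesenchyme and matrix markers were higher, at a median of 1.15 with 12 called, and their summed signal ran from 3928 to 4631 and from 12070 to 13450. COL1A1 stood at 8.90 and 10.64 with DMSO and at 9.20 and 10.79 with TBBD. Of 11 stem cell markers 10 were lower, at a median of -0.62, and 6 of these 10 were called. SOX2 was called higher, at 1.29. Limma called 5.37% of all genes in either direction. Other lists differed too, with 7 of 8 endothelial and blood markers higher (median 0.81, 5 called) and 7 of 9 trophoblast markers lower (median -0.51, 3 called). Of definitive endoderm markers 6 of 7 were higher (median 0.14, 0 called), and of neural markers 6 of 10 (median 0.17, 1 called). The part of these cell types in the lower chaperone signal was not tested.

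**Figure D4:**
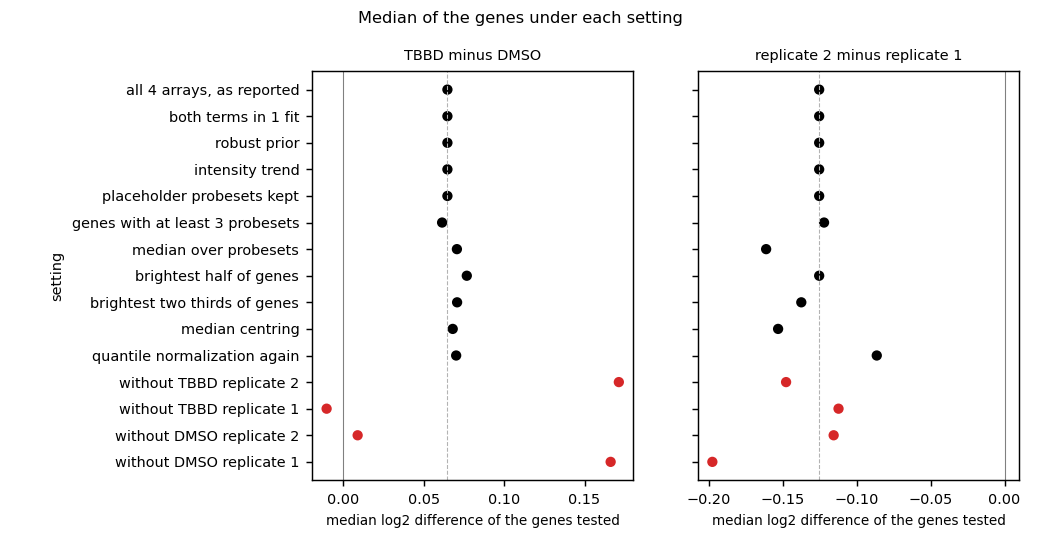
Median log2 difference over the genes of the list that each setting tests (x axis) under each setting (y axis), for TBBD minus DMSO on the left and replicate 2 minus replicate 1 on the right; red points leave out 1 array, and the x axes differ in range. The treatment median runs from -0.010 to 0.17 with 1 array left out, and the replicate median from -0.20 to -0.11. Under repeated quantile normalization the replicate median is -0.087.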

How the data were processed

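RNA of 4 samples was hybridised to Affymetrix Human Gene 1.0 ST arrays after Trizol extraction, per the labels' protocols. The authors processed the arrays with RMA, per the submitters' processing notes, and deposited log2 signals for 247312 probesets; the version, the settings and the build were not given in the sources used here. A placeholder filled 358 cells, and the 277 probesets holding one were dropped. Probesets with several platform symbols (9980) or none (18151) were not used. The rest were averaged per gene, with 2528 older symbols updated through RefSeq.

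Treatment and, separately, replicate number were tested with limma 3.58.1 (R 4.3.3), two-sided, Benjamini-Hochberg adjustment over all genes, threshold 0.05. The fit was tested on simulated data. Python 3.11.15 and pandas 2.3.3 were also used. The number of arrays limits the precision. The genes and lists were chosen with earlier results of these data known. Any listed gene could be named; of the wider pathway, ATF4, DDIT3 and the 3 with the largest difference per direction and comparison; of markers, the first 3 of a list. Alternatives covered normalization, dim genes, probeset summary, placeholder cells, variance model, replicate block and each array. Protein sequences were not used here.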

Additional observations from a re-analysis of the deposited data

How the results depend on the processing

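No gene passed limma's adjusted threshold between TBBD and DMSO under any alternative, the replicate block included (0 of the 31 and 0 of all genes), and the 139 genes at an unadjusted p under 0.05 became 47 among the brightest 12427 genes, 23 among the brightest 9320, 90 with at least 3 probesets, 225 with an intensity trend, 249 with the median over probesets and 496 with the replicate block. The treatment median of the 31 genes ran from -0.010 to 0.17 with 1 array left out and turned sign without TBBD replicate 1 (-0.010), and the 26 higher genes became 14 to 28 and, with the median over probesets, 22. The 1 of the 31 at an unadjusted p under 0.05 in limma, PDIA3, became 0 with median centring and with the median over probesets. The count was also 0 among the brightest 12427 or 9320 genes, and with at least 3 probesets, where PDIA3 was not tested. Under the replicate block 2 of the 31 had an unadjusted p under 0.05, PDIA3 (0.0182) and CRELD1 (0.0354). The labels do not say that the numbers pair samples. Between replicate numbers, 1001 genes called became 653 with treatment as a term and 368 to 685 with 1 array left out; the 5 called of the 31 became 3 with the median over probesets, 2 with treatment as a term and 0 to 1 with 1 array left out, where fewer arrays were fitted. The median of the 31 ran from -0.20 to -0.11 with 1 array left out and was -0.087 with quantile normalization again. Of the 31, 16 were lower on replicate 2 under every setting that tested them. Arrays left out make treatment and number unequal, and the lone array of a group is assumed to vary like the others.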

Other observations

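Outside the 31 genes, 11 other measured genes had the stress response element in a promoter window. They were found by the letters alone, and 6 of them were lower on replicate 2, at a median of -0.098, where 50.6% of all genes were lower. In limma 0 of the 11 had an adjusted p under 0.05 between the numbers, and 2 (SYNPO, higher, and TRIM5, lower) had an unadjusted p under 0.05, near the 21.0% of all genes. FICD, the enzyme that modifies BiP, stood at 6.21 and 6.15 with DMSO and at 6.29 and 6.15 with TBBD in the order of replicates 1 and 2. ERO1B, an oxidase that recharges disulfide isomerases, stood at 5.99 and 5.92 and at 6.25 and 5.90. ALG12, a mannosyltransferase of glycan assembly, stood at 7.02 and 6.83 and at 7.00 and 6.97. In each of these 3 genes both replicate 2 arrays lay below both replicate 1 arrays, by less than in HSPA5, as they did for 25.9% of all genes. The same held for EIF2A, GLRA2 and TRIM5 among the 11, while SYNPO and NLRP4 lay the other way and the rest overlapped. All genes named in this paragraph, except HSPA5, were named after their values were seen.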
